A study of Mus musculus with 8 samples.

Results

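The genes of heterotrimeric G proteins and of their RGS regulators were described in mouse sensory neurons of the dorsal root ganglion (DRG). The rule for membership used gene symbols alone: every symbol of a Gα subunit, a Gβ subunit, a numbered Gγ subunit or a numbered RGS gene in the deposited count files. The rule found 53 of 22609 genes, namely 16 Gα, 5 Gβ, 10 Gγ and 22 RGS genes. No read was found for 4 of them in any library, and 42 passed the filter on low counts and were tested.

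A heterotrimeric G protein carries the signal of a G-protein-coupled receptor into the cell. The activated receptor loads Gα with GTP, Gα and the Gβγ dimer then act on enzymes and ion channels, and an RGS protein ends the signal by speeding up GTP hydrolysis on Gα. In sensory neurons, receptors for opioids, prostaglandins, bradykinin, ATP and itch mediators all signal through this machinery, by way of the classes Gαs (raises cAMP), Gαi/o (lowers cAMP and acts on channels through Gβγ), Gαq/11 (activates phospholipase C) and Gα12/13 (acts on the cytoskeleton).

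The study asked whether the transcriptomes of sensory neurons that supply defined targets differ between the sexes. There were 4 libraries from females and 4 from males, each from a naïve adult C57BL/6J mouse, and the females were in estrous phase. All mice of both sexes received the fluorescent lectin WGA-488 in the hindpaws and thigh muscles, and the dye-carrying cells of the lumbar ganglia were then sorted, so every library carries the tracer and there was no untraced group. Libraries were made with SMART-seq2, which primes cDNA with oligo-dT and amplifies it. The tracer was not restricted to one class of neuron, so each library is a mixture.

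Depth ranged from 4.80 to 7.33 M gene reads per library (M, 1000000 reads), and 3 reads corresponded to 0.409 to 0.625 reads per 1000000 gene reads (CPM). Pan-neuronal markers summed to 16674 to 22555 CPM in female and 17770 to 18451 CPM in male libraries. Markers of satellite glia and Schwann cells were also high and did not overlap between the sexes, at 11676 to 15006 CPM in females and 5475 to 11263 CPM in males, and 14 of 15 markers had the higher mean in females. Apoe alone made up 3068 to 10873 CPM of this sum, while Gfap was at most 0.682 CPM. Markers of myelinated neurons summed to 9308 to 14511 CPM in females and 7019 to 11237 CPM in males, and those of non-peptidergic neurons to 1770 to 3300 CPM and 2968 to 3644 CPM. Red blood cell markers were near 0 (at most 3.71 CPM, with Hba-a1, Hba-a2, Hbb-b1 and Hbb-b2 at 0), as were lymphocyte markers (at most 2.02 CPM, with Cd3g and Cd8a at 0), and macrophage markers reached 17.4 CPM. In such mixed samples, fewer cells of a type and less RNA per cell cannot be told apart. Female replicate 4 stood apart: its gene counts differed from those of the other females with a chi-square per degree of freedom of 32.3 to 48.0, against at most 12.8 within every other same-sex pair, and values without it are given beside many of the differences between the sexes.

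To compare levels between genes, CPM was divided by the summed exon length of the gene in kilobases (RPKM here). Levels ran over a wide range. Of the 53 members, 7 lay above 100 RPKM, 25 above 10 RPKM and 38 above 1 RPKM. At the top were 3 genes that stood well clear of their own classes: Rgs4 at 784 ± 107 RPKM (SD, n = 8), Gng3 at 667 ± 74.9 RPKM (SD, n = 8) and Gnb1 at 587 ± 52.8 RPKM (SD, n = 8). They ranked 38, 53 and 66 among the 21627 genes with a known length.

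**Figure D1:**
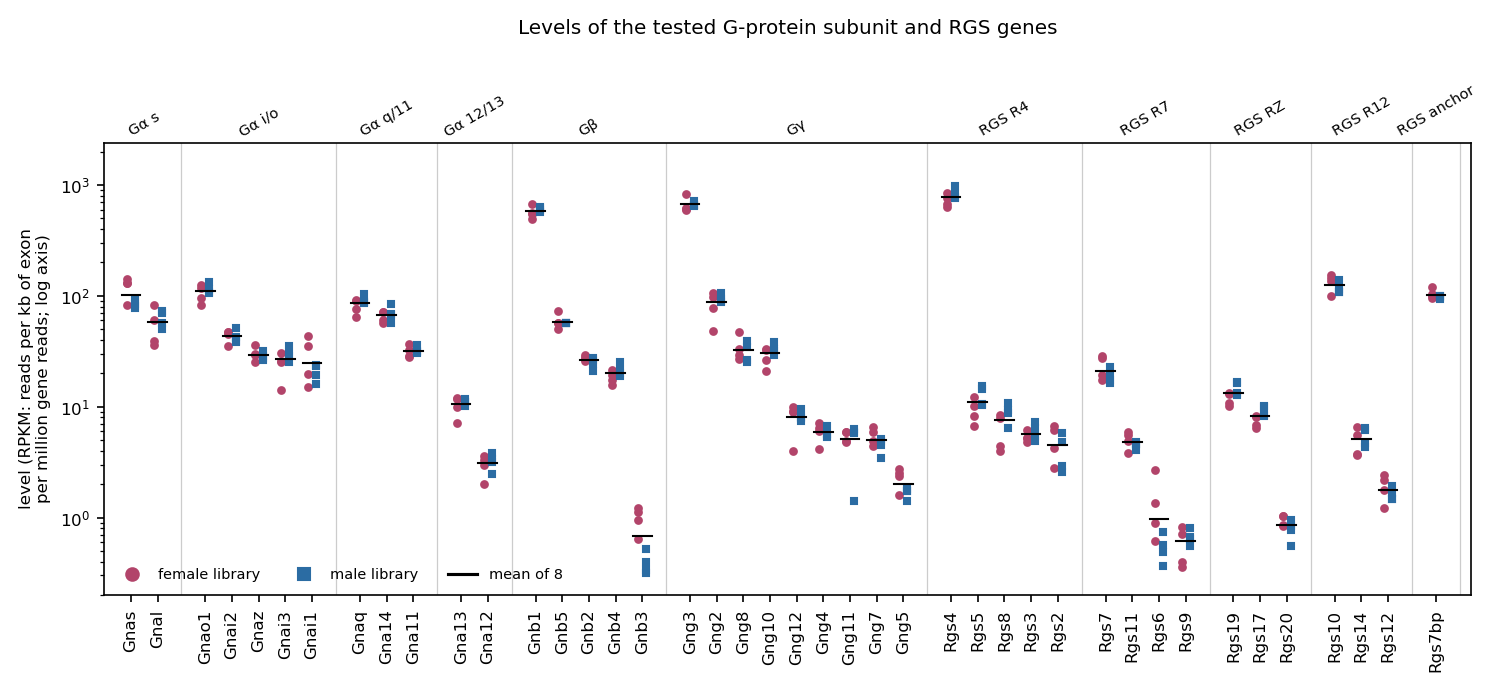
Level of each of the 42 tested members in RPKM (reads per kilobase of exon per 1000000 gene reads, log axis), ordered by class and by mean level, with 4 female libraries as circles, 4 male libraries as squares and the mean of 8 as a bar. Rgs4, Gng3 and Gnb1 lie at 498 RPKM or more in every library, and within each class 1 or a few genes carry most of the level.

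The Gαi/o class was carried by Gnao1, the gene of the neuronal Gαo subunit (chr8:96333866-96493288, plus strand, mm9), at 110 ± 16.2 RPKM (SD, n = 8). Gnai2 followed at 43.4 ± 5.36 RPKM, without overlap of their library ranges. Gnaz at 29.3 ± 3.31 RPKM, Gnai3 at 26.9 ± 6.08 RPKM and Gnai1 at 24.6 RPKM (up to 43.8) overlapped one another. Pertussis toxin, the classical tool for blocking these subunits, modifies a cysteine at the fourth place from the end of the protein. The last 18 coding bases before the stop codon are shown here for the 5 members of the class that were tested, since they tell the toxin's targets from Gnaz. Capitals mark the codon at position 4 from the end (GENCODE M1 transcripts, mm9).
Gnao1: cggggcTGCggcttgtac
Gnai1: aaagacTGTggtctcttc
Gnai2: aaggacTGTggcctcttc
Gnai3: aaggaaTGTgggctttat
Gnaz: aagtacATCggcctttgc
The first 4 hold a cysteine codon at this place and Gnaz does not. Of the 8 genes of the class, 7 carry the cysteine codon, and together they made up a median of 88.2% of the class level per length (range 81.9% to 89.5% over the 8 libraries), with Gnaz as the rest. The remaining 3 genes of the class are the transducins of rods and cones, Gnat1 and Gnat2, and the taste subunit Gnat3. Gnat1 and Gnat3 had 0 reads in all 8 libraries, which allows at most 3 reads, or 0.409 to 0.625 CPM, in any of them, and Gnat2 had 0 or 1 read.

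In the Gαs class, Gnas (chr2:174109821-174172245, plus strand, mm9), which encodes the ubiquitous Gαs, was at 103 ± 27.3 RPKM (SD, n = 8). Gnal, the gene of the olfactory and striatal subunit Gαolf, was at 58.5 ± 16.3 RPKM (SD, n = 8), with overlapping library ranges. The level of Gnas depends on the length used. Gnas is an imprinted locus with several first exons, and its exons add up to 11186 bases although the longest annotated transcript has 3947. With the longest transcript as the length, Gnas came to 291 RPKM and Gnao1 to 216 RPKM, which swaps their order among the Gα genes, while Gnas stayed above Gnal.

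The Gαq/11 class had 2 genes of similar level. Gnaq stood at 86.0 ± 11.2 RPKM (SD, n = 8) and Gna14 at 67.3 ± 9.34 RPKM (SD, n = 8), with overlapping ranges. Gna11 was lower than both without overlap, at 31.8 ± 3.13 RPKM, and Gna15, known from blood cells, had 0 to 3 reads. Gnaq (chr19:16207321-16461953) and Gna14 (chr19:16510157-16685308) are neighbours on the genome, 48.2 kb apart, and were both present. Gna15 (chr10:80965051-80986970) and Gna11 (chr10:80991469-81007935) lie only 4.50 kb apart, yet Gna11 had 547 to 1076 reads per library. The i/o genes are paired with transducins in the same way. Gnai3 (chr3:107910198-107949064) lies 5.85 kb from Gnat2, and Gnai2 (chr9:107516461-107537673) lies 39.1 kb from Gnat1.

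The Gα12/13 class was the lowest. Gna13 was at 10.5 ± 1.57 RPKM (SD, n = 8) and Gna12 at 3.10 ± 0.603 RPKM (SD, n = 8), without overlap. Over the 16 Gα genes, the mean shares of the summed level were 18.6% for Gnao1, 17.3% for Gnas, 14.5% for Gnaq, 11.3% for Gna14 and 9.75% for Gnal. Each of the 10 highest Gα genes overlapped its neighbour in the order. With the longest transcript as the length the order turned, with 31.1% for Gnas, 23.4% for Gnao1 and 10.2% for Gnaq.

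The Gβ and Gγ families were each led by 1 gene. Gnb1 (chr4:154865470-154933378, plus strand) made up 84.8% of the summed Gβ level (range 83.4% to 85.8% over the libraries). Gnb5, which encodes the atypical Gβ5 that pairs with R7 RGS proteins in place of a Gγ, followed at 58.1 ± 6.26 RPKM (SD, n = 8). Gnb2 at 26.2 ± 2.53 RPKM and Gnb4 at 19.9 ± 2.89 RPKM overlapped, and Gnb3, best known from cone photoreceptors, was at 0.684 ± 0.361 RPKM.

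Gng3 (chr19:8911419-8913736, minus strand), a neuronal Gγ, made up 78.8% of the summed Gγ level (range 74.9% to 84.5%). Gng2 followed at 88.4 ± 18.7 RPKM (SD, n = 8), Gng8 at 32.7 ± 7.58 RPKM and Gng10 at 30.7 ± 5.21 RPKM. The other tested Gγ genes (Gng12, Gng4, Gng11, Gng7 and Gng5) had means of 1.99 to 8.09 RPKM, and Gng13, known from taste and retina, had 0 to 3 reads. A 398-base stretch of Gng3 exons overlaps Bscl2 on the other strand. Gγ proteins end in a cysteine that receives a lipid anchor, and the last residue is known to set which lipid, with leucine for geranylgeranyl and serine for farnesyl. The last 18 coding bases are shown for the most abundant Gγ genes and for Gng11, the one member that differs at the last codon. Capitals mark the cysteine codon.
Gng3: ttcttcTGTgcgctcctc
Gng2: ttcttcTGCgccatcctt
Gng8: ctctttTGCaccctgctc
Gng10: aggtccTGTgctctactt
Gng11: ggcagcTGTgtcatttca
Of the 10 Gγ genes, 9 end in a leucine codon, and these made up a median of 99.3% of the summed Gγ level (range 99.2% to 99.8%). Gng11, the serine-ending member, was at 5.12 ± 1.59 RPKM (SD, n = 8).

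Summed over each family, the levels were of the same order. Gα genes together reached 594 ± 50.1 RPKM (SD, n = 8), Gβ genes 692 ± 58.0 RPKM (SD, n = 8) and Gγ genes 845 ± 68.1 RPKM (SD, n = 8). The ratio of summed Gβ to summed Gα was 1.19 at the median and ran from 0.983 to 1.36 over the libraries, and that of Gγ to Gβ was 1.23 (1.15 to 1.29). The first of these ratios turned with the length used: with the longest transcripts Gα genes summed to 928 ± 85.4 RPKM (SD, n = 8) and Gβ to Gα had a median of 0.833 (0.666 to 0.882), while Gγ to Gβ was 1.17 (1.09 to 1.22). Gng3 over Gnb1 was 1.13 (1.05 to 1.23), so the leading Gβ and Gγ genes kept a narrow ratio from library to library.

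**Figure D2:**
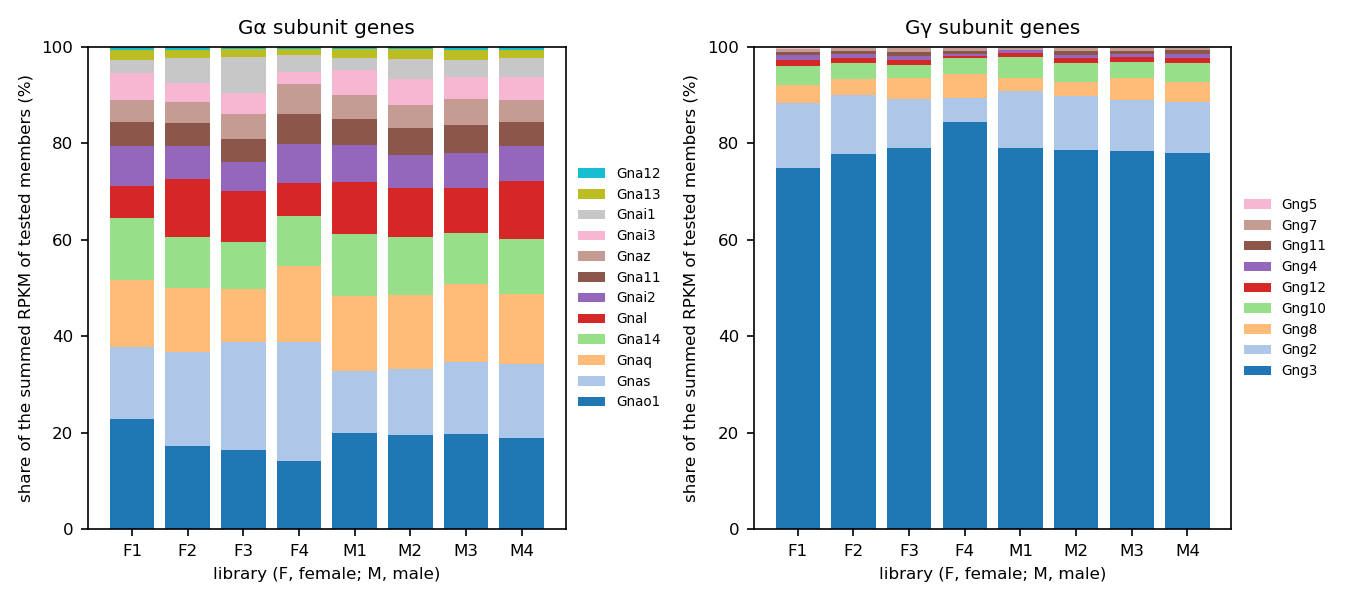
Share of each tested member in the summed RPKM of the tested Gα genes (left) and Gγ genes (right), in percent, for the 4 female (F) and 4 male (M) libraries. The Gα level is spread over many genes, with Gnao1 at 18.6% on average, while Gng3 holds 78.8% of the Gγ level on average and most in female replicate 4.

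Of the RGS genes, Rgs4 (chr1:171671608-171677773, minus strand), a small R4-class protein that acts on Gαi/o and Gαq, made up 71.3% of the summed RGS level (range 65.1% to 74.6%) and 96.4% of its class. Rgs5 at 11.01 ± 2.93 RPKM, Rgs8 at 7.51 ± 2.37 RPKM, Rgs3 at 5.67 ± 0.839 RPKM and Rgs2 at 4.50 ± 1.63 RPKM each overlapped the next. The R4 genes Rgs1, Rgs13 and Rgs18, known from blood cells, had at most 3 reads in any library, with 0 reads for Rgs13, and Rgs16 had 3 to 11 reads. RGS4, RGS5 and RGS16 share a cysteine as the second residue, which marks these proteins for rapid breakdown by the N-degron pathway. The first 12 coding bases are shown because this feature joins the most abundant RGS gene to 2 genes of low level. Capitals mark the second codon.
Rgs4: atgTGCaaagga
Rgs5: atgTGTaaggga
Rgs16: atgTGCcgcacc
Rgs4 and Rgs5 lie 45.7 kb apart on chromosome 1, and their mean levels per length differed 71.2-fold. Rgs8 (chr1:155500155-155544797) and Rgs16 (chr1:155587479-155592598) lie 42.7 kb apart and differed 17.3-fold. In all, 10 members lie on chromosome 1, all of them RGS genes and 8 of them R4 genes.

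The other RGS classes each had 1 leading gene. In the R12 class, Rgs10, a short protein that is little more than an RGS domain, was at 126 ± 20.7 RPKM (SD, n = 8) and made up 94.8% of the class. In the R7 class, whose proteins bind Gβ5, Rgs7 was at 21.0 ± 4.66 RPKM (SD, n = 8), above Rgs11 at 4.79 ± 0.706 RPKM, while Rgs6 at 0.964 RPKM and Rgs9 at 0.620 RPKM overlapped. The R7 anchor Rgs7bp, which tethers R7 proteins to the membrane, was at 101 ± 8.57 RPKM (SD, n = 8), above the summed R7 class at 27.3 ± 4.92 RPKM. Its retinal counterpart Rgs9bp had 0 to 10 reads. In the RZ class, Rgs19 was at 13.2 ± 2.34 RPKM and Rgs17 at 8.29 ± 1.25 RPKM, and Rgs20 was far lower. Rgs22, of no class here, had 0 reads.

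The gene at the head of each of the 11 classes with more than 1 member was the same with the longest transcript as the length, with only exon windows that occur once in the genome as the length, and with each library left out in turn. The levels themselves depended on the length: with the longest transcript, 10 of the 42 tested members came out over 1.5-fold higher (1.56-fold to 2.83-fold), and Rgs10 was then at 244 RPKM, Gnb2 at 47.8 RPKM, Gnb4 at 42.1 RPKM and Rgs3 at 11.9 RPKM. Rgs3 then had a higher mean than Rgs8 at 9.02 RPKM, with overlapping ranges. The shares of the leading genes were lower with this length. Gnb1 then made up 79.0% of the summed Gβ level (range 77.4% to 80.5%) and Gng3 77.1% of the summed Gγ level (73.0% to 83.5%). Rgs4 made up 64.3% of the summed RGS level (57.2% to 67.6%). Of 50-base exon windows, 68.2% were unique for Rgs6, 74.6% for Rgs3 and 89.0% for Gng5, and at least 93.5% for every other member, so reads of Rgs6 and Rgs3 that fall elsewhere in the genome as well may not have been counted.

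The sexes were then compared gene by gene with edgeR's quasi-likelihood test, with log2 fold changes given as female over male. No tested member reached an adjusted p under 0.05 (0 of 42), where 11 of 12518 genes did over the whole table (0.0879%). DESeq2 and limma-voom also gave 0. At an unadjusted p under 0.05 there were 6 members. Females were higher for 3 of them, against 4.44% of all genes, and males for the other 3, against 2.67% of all genes. DESeq2 and limma-voom each gave 6 as well. With library size alone as the scaling there were 4, with an unadjusted p of 0.0508 for Rgs5 and 0.0608 for Rgs19, and Rgs19 was at 0.0506 without the low-count filter. With each library left out in turn, 2 of the 6 (Gnb3 and Gnas) stayed under 0.05 every time, and 11 of the other 36 members came under it at least once. Log2 fold changes were above 0 for 19 members and below 0 for 23, with a median of -0.05, beside a median of 0.0034 over all tested genes. For 38 of the 42 members the 95% interval of the difference lay within 1 log2 unit either way, and it reached further for Gnb3, Rgs6, Rgs8 and Gnai1.

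**Figure D3:**
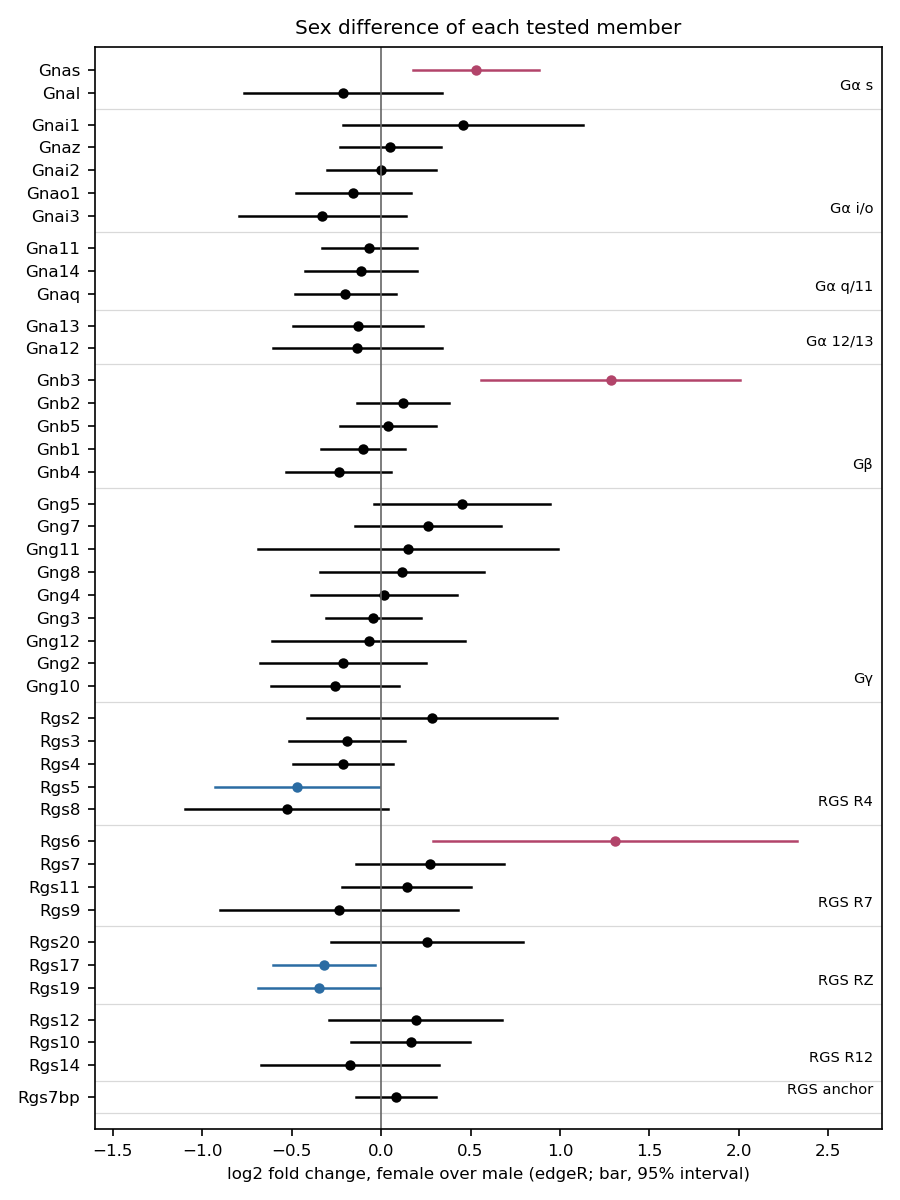
Log2 fold change (female over male) of each of the 42 tested members, by class, with the 95% interval as a bar; members with an unadjusted p under 0.05 are red (female higher) or blue (male higher). The 6 coloured members are Gnas, Gnb3 and Rgs6 on the female side and Rgs5, Rgs17 and Rgs19 on the male side, and none of them has an adjusted p under 0.05.

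Gnb3 was at 2.47, 2.95, 1.67 and 3.201 CPM in female replicates 1 to 4 and at 1.36, 0.891, 0.826 and 1.04 CPM in male replicates 1 to 4. Every female library lay above every male library. It was the one member whose sexes did not overlap (1 of 42), where 5.52% of all tested genes did not. The counts behind it were small, from 8 to 19 reads in the females and from 5 to 10 in the males. The log2 difference was 1.28 (95% interval 0.56 to 2.01, 2.43-fold), with an unadjusted p of 0.00252 and an adjusted p of 0.492. Its unadjusted p stayed under 0.05 whichever library was left out, and was 0.00841 with the glial marker score in the model.

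Gnas was at 927, 1469, 1458 and 1600 CPM in the females and at 936, 863, 901 and 1031 CPM in the males. Female replicates 2, 3 and 4 lay above all males, and female replicate 1 lay within the male range. The log2 difference was 0.53 (95% interval 0.18 to 0.88, 1.44-fold), with an unadjusted p of 0.00717 and an adjusted p of 0.613. Female replicate 1 decides the call: without it the difference was 0.68 and the adjusted p 0.0205, and no other library left out gave an adjusted p under 0.05. Without female replicate 4 the difference was 0.45 (unadjusted p = 0.0133), and with the glial score in the model it was 0.50 (unadjusted p = 0.0731). Of its exon bases, 988 overlap Nespas on the other strand, and the files do not tell which Gnas transcript the reads came from.

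Rgs6, an R7 gene, was at 3.02, 2.08, 9.17 and 4.55 CPM in the females and at 1.23, 2.53, 1.65 and 1.92 CPM in the males. The groups overlapped, and female replicate 3 was far above all others. The log2 difference was 1.31 (95% interval 0.29 to 2.33), with an unadjusted p of 0.0167 and an adjusted p of 0.637. Without female replicate 3 it was 0.78 (unadjusted p = 0.0632), and with the glial score in the model 1.04 (unadjusted p = 0.174).

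Rgs17, an RZ gene whose protein acts on Gαi/o and Gαz, was at 67.0, 68.7, 53.5 and 57.3 CPM in the females and at 81.9, 83.3, 68.2 and 70.4 CPM in the males. The ranges touched only at female replicate 2 and male replicate 3, and on library sizes scaled by TMM they did not overlap. On that scale 2 of 42 tested members had ranges without overlap (Gnb3 and Rgs17), against 5.63% of all tested genes. The log2 difference was -0.32 (95% interval -0.61 to -0.04, 1.25-fold higher in males), with an unadjusted p of 0.0308 and an adjusted p of 0.662. The unadjusted p was 0.0848 without female replicate 3, 0.0876 without male replicate 1 and 0.0966 without male replicate 2. Rgs19, of the same class, was at 22.4, 29.5, 24.0 and 29.0 CPM in the females and at 36.3, 28.4, 29.4 and 37.4 CPM in the males. Male replicates 1 and 4 lay above all females and the rest overlapped. The log2 difference was -0.35 (95% interval -0.69 to -0.01), with an unadjusted p of 0.0470 and an adjusted p of 0.696. The unadjusted p was between 0.101 and 0.143 without female replicate 1, female replicate 3, male replicate 1 or male replicate 4.

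Rgs5, an R4 gene also known as a marker of pericytes, was at 46.2, 55.7, 37.1 and 30.3 CPM in the females and at 69.2, 47.4, 48.5 and 66.3 CPM in the males. Male replicates 1 and 4 were above all females, while male replicates 2 and 3 were below female replicate 2. The log2 difference was -0.47 (95% interval -0.93 to -0.01), with an unadjusted p of 0.0456 and an adjusted p of 0.696. The 15 mural and endothelial markers together summed to 33.4 to 43.7 CPM in females and 34.7 to 39.9 CPM in males, and overlapped, with the higher mean in females for 12 of the 15. Pdgfrb ran from 7.08 to 26.6 CPM in females and from 21.8 to 26.5 CPM in males, and each other marker stayed at 9.26 CPM or less. The score used in the model was the unweighted mean of log2(CPM + 1) over the listed markers that passed the filter. Markers near 0 thus weighed as much as Pdgfrb. With this score in the model the Rgs5 difference was -0.47 (unadjusted p = 0.0414). The part of pericytes alone was not tested. Without female replicate 4 the difference was -0.34 (unadjusted p = 0.0839), and the unadjusted p was also above 0.05 without female replicate 1, female replicate 3, male replicate 1 or male replicate 4 (0.0545 to 0.132).

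**Figure D4:**
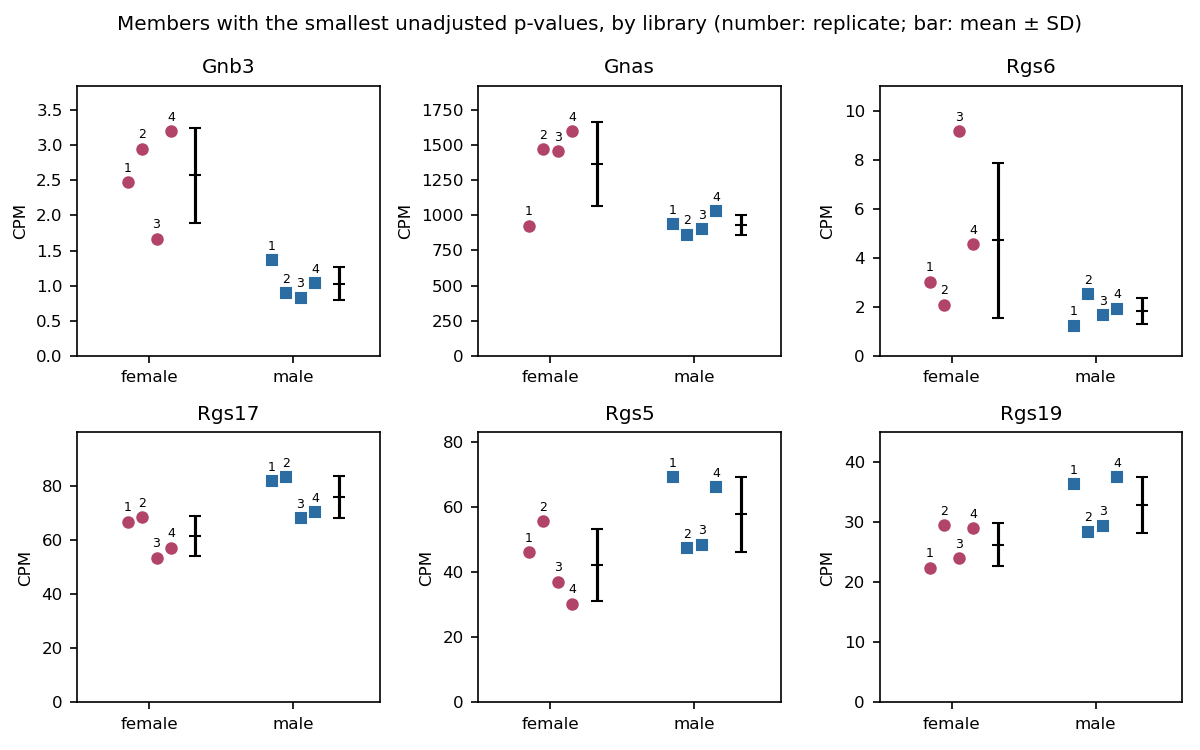
CPM of the 6 members with an unadjusted p under 0.05 in each library (axes start at 0; numbers are replicates), with the mean and SD of 4 libraries beside each group. The sexes are apart for Gnb3, with females at 1.67 CPM or more and males at 1.36 CPM or less, and overlap for the other 5.

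The 3 members on the male side, and Gnas and Rgs6 on the female side, had unadjusted p-values of 0.0731 or more once the glial score was in the model, with 0.270 for Rgs17, 0.348 for Rgs19 and 0.438 for Rgs5. The differences then were -0.22 for Rgs17, -0.23 for Rgs19 and -0.24 for Rgs5, and the standard errors were wider, at 0.19, 0.23 and 0.30 against 0.13, 0.15 and 0.21 without the score. The glial marker sums do not overlap between the sexes, so sex and this score cannot be fully told apart here. Markers of myelinated neurons were higher on average in females for 10 of 10 genes and fibroblast markers for 10 of 11 (106 to 174 CPM in females, 60.3 to 114 CPM in males). Peptidergic and non-peptidergic markers each had the higher mean in females for 1 of 6 genes, and the peptidergic markers summed to 4438 to 5808 CPM in females and 5308 to 7666 CPM in males. The part of these 4 lists in the 6 differences was not tested.

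Apart from Gnas, the members above 100 RPKM had log2 differences of at most 0.21 in size. Rgs4 was at 2372, 2646, 1949 and 2096 CPM in the females and at 3018, 2346, 2426 and 2578 CPM in the males, with a log2 difference of -0.21 (95% interval -0.49 to 0.07). The female values lay somewhat lower and overlapped the male values. The difference was -0.10 for Gnb1 (-0.33 to 0.13), -0.04 for Gng3 (-0.31 to 0.22) and -0.15 for Gnao1 (-0.48 to 0.17). It was 0.16 for Rgs10 (-0.17 to 0.50) and 0.08 for Rgs7bp (-0.14 to 0.30). Each of these intervals includes 0 and stays within 1 log2 unit, a 2-fold difference, on both sides. With each library left out in turn, Gnb1 ran from -0.18 without female replicate 4 (unadjusted p = 0.0193) to -0.05 without female replicate 3, and Gng3 from -0.16 without female replicate 4 (unadjusted p = 0.0317) to 0.01 without female replicate 1. Rgs4 ran from -0.30 without female replicate 2 (unadjusted p = 0.0416) to -0.12 without male replicate 1. Gnao1 ran from -0.24 without female replicate 1 to -0.05 without female replicate 4, Rgs10 from 0.09 without female replicate 4 to 0.28 without female replicate 3, and Rgs7bp from 0.01 without female replicate 4 to 0.12 without female replicate 3.

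By class, all 3 tested Gαq/11 genes had negative values (-0.07 for Gna11, -0.11 for Gna14 and -0.20 for Gnaq), as did both Gα12/13 genes (-0.13 each), with no unadjusted p under 0.05. The signs of Gna13 and Gna14 turned when 1 library was left out. With each left out in turn, Gna11 ran from -0.14 without female replicate 4 to -0.0029 without male replicate 1, Gna14 from -0.20 without male replicate 3 to 0.0096 without male replicate 1, Gna12 from -0.24 without female replicate 2 to -3.0e-05 without female replicate 3, and Gna13 from -0.22 without female replicate 2 to 0.0090 without female replicate 4. Gnaq ran from -0.26 without female replicate 2 to -0.12 without female replicate 3, with an unadjusted p of 0.0389 without female replicate 4. With the glial score in the model the values were 0.033 for Gna11, 0.18 for Gna14 and -0.085 for Gnaq. Signs were mixed among the 5 tested Gαi/o genes, from -0.33 for Gnai3 to 0.46 for Gnai1. Gnai3 was at -0.14 without female replicate 4 and at -0.45 without female replicate 1. Gnai1 was at 0.17 without female replicate 3 and at 0.68 without female replicate 1 (unadjusted p = 0.0218). Signs were also mixed among the 9 tested Gγ genes, from -0.26 for Gng10 to 0.45 for Gng5 (unadjusted p = 0.0670). Gng10 was at -0.15 without female replicate 3 and at -0.34 without female replicate 4 (unadjusted p = 0.0449), and Gng5 at 0.36 without female replicate 1 and at 0.58 without female replicate 3 (unadjusted p = 0.0225). Of the 5 tested R4 genes, 4 had negative values, and Rgs8 had the most negative, -0.53 (95% interval -1.10 to 0.04). Rgs8 was at 55.7, 58.5, 30.8 and 28.0 CPM in the females and at 74.9, 65.2, 44.9 and 61.7 CPM in the males. Female replicates 3 and 4 were the lowest, and the groups overlapped. The unadjusted p was 0.0640, and it was 0.0330 without female replicate 1 (-0.67), 0.0236 without female replicate 2 (-0.71), 0.0349 without male replicate 3 (-0.65) and 0.0128 with the replicate number as a block (-0.58). The difference was -0.36 without female replicate 4 (unadjusted p = 0.125) and -0.24 with the glial score in the model (unadjusted p = 0.528). Of the 4 R7 genes, 3 had positive values, with 0.27 for Rgs7 and 0.14 for Rgs11. Rgs11 ran from 0.06 without female replicate 4 to 0.25 without female replicate 2, and Rgs7 from 0.15 without female replicate 2 to 0.40 without female replicate 1 (unadjusted p = 0.0485).

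Members varied between libraries of one sex as well. Gnai1 was at 48.0, 114, 140 and 63.5 CPM in the females, a 2.91-fold range on 349 reads or more per library, against 51.3, 74.3, 61.8 and 75.3 CPM in the males. Gnal was at 283, 650, 481 and 312 CPM in the females and at 557, 447, 401 and 576 CPM in the males. Both were high in female replicates 2 and 3 and low in female replicates 1 and 4. The log2 difference of Gnal was -0.21 (unadjusted p = 0.411), and it was -0.05 without female replicate 1 and -0.49 without female replicate 2 (unadjusted p = 0.0479). Gng2 was at 468, 424, 342 and 213 CPM in the females, with the lowest value in female replicate 4, and at 388 to 467 CPM in the males. Its log2 difference of -0.21 was -0.03 without female replicate 4 and -0.35 without female replicate 1. Gnb5 ran from 119 to 170 CPM in the females and from 133 to 135 CPM in the males, where the spread on 808 to 974 reads was below that of counting error (chi-square of 0.0353 per degree of freedom).

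Less abundant members showed the same kind of spread. Gng12 was at 46.2, 41.6, 42.5 and 18.7 CPM in the females and at 34.9 to 44.3 CPM in the males, and Gnai3 was at 98.6, 84.9, 83.1 and 46.3 CPM in the females and at 82.2 to 115 CPM in the males. In both genes female replicate 4 lay below all other libraries. Rgs2, whose protein acts mainly on Gαq, was at 15.3, 10.2, 22.3 and 24.4 CPM in the females and at 9.41, 21.1, 10.6 and 17.3 CPM in the males. Each sex held both low and high libraries, and the log2 difference of 0.28 had a 95% interval of -0.42 to 0.98 and ran from 0.10 without female replicate 4 to 0.52 without male replicate 2. Gng8, known from olfactory and vomeronasal neurons, was at 26.8, 24.8, 30.6 and 43.8 CPM in the females and at 24.0, 23.5, 35.7 and 31.5 CPM in the males. Female replicate 4 was the highest, and without it the sign of the difference turned from 0.12 to -0.08. Rgs7 was at 28.2, 46.3, 31.7 and 44.6 CPM in the females and at 28.1, 31.2, 26.9 and 36.8 CPM in the males. Female replicates 2 and 4 were above all males, and the other females lay within the male range (difference 0.27, 95% interval -0.14 to 0.68).

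The remaining tested members also overlapped between the sexes. Gnb2 had a log2 difference of 0.12 (95% interval -0.14 to 0.38) and Gnb4 of -0.24 (-0.53 to 0.06). Gnai2 and Gnaz, the next i/o genes after Gnao1, were at 0.00 (-0.31 to 0.31) and 0.05 (-0.23 to 0.34). Among the low Gγ genes the difference was 0.26 for Gng7 (-0.15 to 0.67), 0.02 for Gng4 (-0.39 to 0.42) and 0.15 for Gng11 (-0.69 to 0.99). Among the low RGS genes it was 0.25 for Rgs20 (-0.28 to 0.79), -0.24 for Rgs9 (-0.90 to 0.43), -0.19 for Rgs3 (-0.51 to 0.13), 0.19 for Rgs12 (-0.29 to 0.68) and -0.17 for Rgs14 (-0.67 to 0.33). All of these intervals include 0. With each library left out in turn, Rgs12 ran from 0.06 without female replicate 1 to 0.36 without female replicate 4, Rgs14 from -0.33 without female replicate 4 to -0.07 without female replicate 2 or 3, and Gnaz from -0.04 without female replicate 4 to 0.13 without female replicate 1. Gng11 came to -0.16 without male replicate 1 and to -0.80 with the glial score in the model (unadjusted p = 0.0570). Gnb4 ran from -0.32 without female replicate 2 (unadjusted p = 0.0445) to -0.14 without male replicate 1. Rgs9 ran from -0.45 without female replicate 2 to -0.09 without female replicate 3. Gnb2 ran from 0.05 without male replicate 3 to 0.18 without male replicate 4. Gng7 ran from 0.15 without female replicate 3 to 0.35 without female replicate 2. Rgs20 ran from 0.13 without male replicate 4 to 0.36 without male replicate 2. Rgs3 ran from -0.27 without male replicate 3 to -0.08 without male replicate 1.

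**Figure D5:**
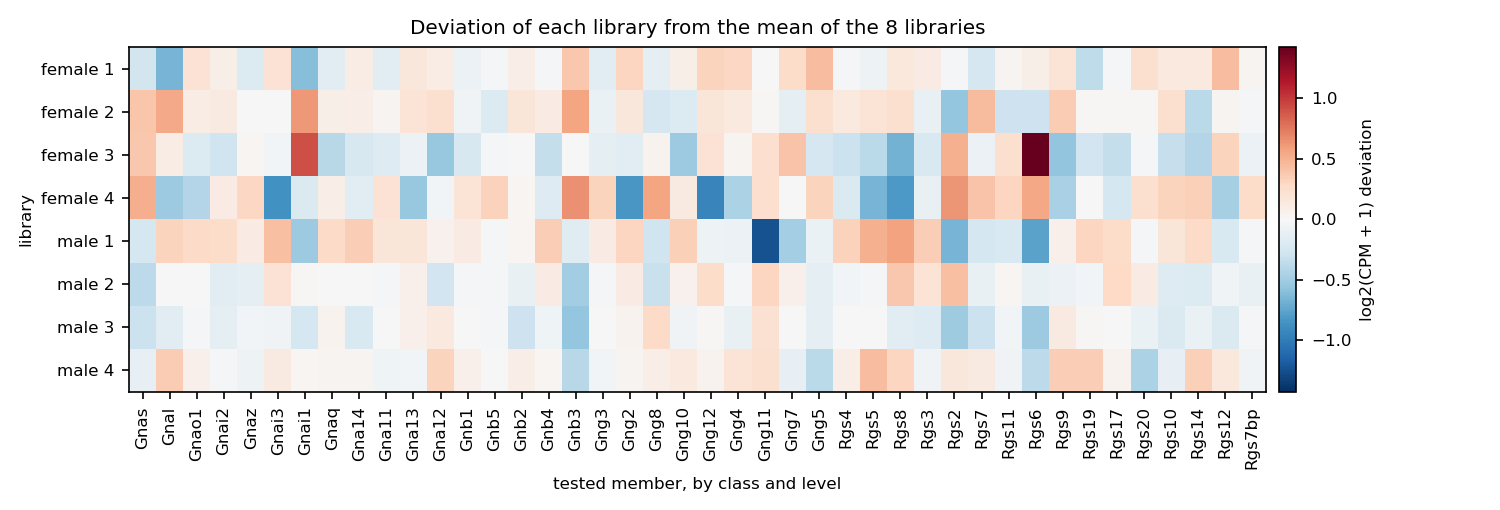
Deviation of each library from the mean of the 8 libraries, in log2(CPM + 1), for the 42 tested members in order of class and level (red, above the mean; blue, below). Female replicate 4 has the largest mean absolute deviation, 0.360, and the single darkest fields are Gng11 in male replicate 1 and Rgs6 in female replicate 3.

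Single libraries held many of the extremes. Female replicate 4 was the highest of the 8 for 13 members, among them Gnas, Gnb3, Gnb1, Gng3 and Rgs10, and the lowest for 9, among them Gng2, Gng12, Gnai3, Rgs5 and Rgs8. The median exon length of the first group was 3143 bases and of the second 4694 bases. This library also had the highest sums of pan-neuronal, myelinated and glial markers and the lowest of non-peptidergic markers, and the part of these in the extremes was not tested. Male replicate 1 was the highest for 11 members and had 1.23 CPM of Gng11, against 5.12 to 5.50 CPM in the other males. The same library had the lowest glial marker sum, 5475 CPM against 8990 to 11263 CPM in the other males, and the part of this in Gng11 was not tested. Female replicate 3, the shallowest library, was the lowest for 14 members.

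The genes around G proteins were taken from a list of 38 enzymes, channels, kinases, arrestins and chaperones, of which 37 were in the files and 30 were tested. At an unadjusted p under 0.05, females were higher for 1 of these 30 genes (4.44% of all tested genes were) and males for 0 (2.67% of all tested genes), and 0 genes had an adjusted p under 0.05 (DESeq2 gave 1 at an unadjusted and 0 at an adjusted p under 0.05). The 1 gene was Arrb2, which encodes β-arrestin 2, at 22.5 ± 1.77 CPM (SD, n = 4) in females and 17.5 ± 1.96 CPM (SD, n = 4) in males. Its log2 difference was 0.34 with an unadjusted p of 0.0349 and an adjusted p of 0.681. The unadjusted p was above 0.05 without female replicate 1, female replicate 2, male replicate 1, male replicate 2 or male replicate 3 (0.0511 to 0.0924), with the replicate number as a block (0.0635) and with the glial score in the model (0.170). Arrb1, for β-arrestin 1, had a difference of -0.57 (unadjusted p = 0.0727).

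Among these partners the Gαq effector Plcb3 was the highest, at 208 ± 53.7 RPKM (SD, n = 8), far above Plcb1 at 3.73 RPKM, while Plcb2 had at most 1 read. The chaperonin gene Cct2, which helps to fold Gβ, was at 90.5 ± 5.40 RPKM, and the Gα chaperone Ric8 at 44.4 ± 5.16 RPKM. The receptor kinase Adrbk1 (GRK2) was at 36.6 ± 5.15 RPKM and the Gα12/13 effector Arhgef11 at 22.7 ± 5.06 RPKM. Adenylyl cyclases were low, with Adcy3 the highest at 5.13 ± 0.958 RPKM. Channels of the GIRK family, classical targets of Gβγ in other neurons, were lower still. Kcnj3 was at 1.55 ± 0.397 RPKM, Kcnj6 had 0 to 11 reads, Kcnj9 had 1 to 8 reads and Kcnj5 had 0 reads in all 8 libraries.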

How the data were processed

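RNA was sequenced from traced and sorted DRG neurons of 4 female and 4 male mice. The authors mapped 50-base single reads to mm9 (TopHat2) and deposited raw read counts per gene made by HTSeq-count, with no normalization. Tool versions, the annotation and the strand option are not given in the sources used here, so antisense overlaps cannot be separated. Summary lines of the counter were dropped, and CPM used the sum over genes (4.80 to 7.33 M). Reads carry no molecular identifiers, so limits from 3 reads cover counting error only. RPKM used exon lengths of GENCODE M1 (NCBIM37, the assembly also called mm9). All 53 members matched it. Coding sequences were taken for 52, and Gnal, on chromosome 18, was left out of this step. Coordinates are 1-based.

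Sexes were compared with edgeR 4.0.16 (R 4.3.3): TMM scaling, the default expression filter, a quasi-likelihood test without covariates and Benjamini-Hochberg adjustment over 12518 genes. The script was tested on simulated data. P-values measure the spread between these libraries only. Alternatives were DESeq2 1.42.0, limma-voom 3.58.1, other scalings and filters, a glial or mural marker score, a replicate block and each library left out. Figures used Python 3.11.15 and matplotlib 3.10.9. Members named were those with an unadjusted p under 0.05 or without overlap, the 3 highest per class and those below the filter; other members were named after their values were seen. This family of genes, its symbol rule and the lists were chosen with earlier results of these data known, although the rule itself uses no values. The authors' other preparations were not analysed here, and 1 item of a marker list is not reported here.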

Additional observations from a re-analysis of the deposited data

Results flagged for a closer look

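Among groups of 4 libraries, 6 member values lay apart from the rest of their group by Dixon's criterion, out of 84 groups checked (both sexes for each of the 42 tested members), and chance alone gives about 4.2. Gnai2 was at 77.5 CPM (372 reads) in female replicate 3, against 99.7 to 103 CPM in the other females. Gng3 was at 1401 CPM in female replicate 4, against 1009 to 1057 CPM in the other females, and Gng12 was at 18.7 CPM (111 reads) in the same library, against 41.6 to 46.2 CPM. Gnaq was at 637.6 CPM in male replicate 1, against 531 to 547 CPM in the other males, and Gng11 was at 1.23 CPM (9 reads) in the same library, against 5.12 to 5.50 CPM. Gng5 was at 3.85 CPM (26 reads) in male replicate 4, against 4.75 to 4.91 CPM in the other males.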

How the results depend on the processing

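With each library left out in turn, members with an adjusted p under 0.05 numbered 0 to 1 (Gnas, without female replicate 1) and members with an unadjusted p under 0.05 numbered 3 to 10 (10 without female replicate 2, 3 without female replicate 3 and without male replicate 1). Over all genes the adjusted calls ran from 7 to 84 (84 without female replicate 1) and the unadjusted from 587 (without male replicate 1) to 1453 (without female replicate 4), and pathway genes from 0 to 3. With the glial score as a covariate, 1 member, 283 genes and 0 pathway genes had an unadjusted p under 0.05, and 5 genes an adjusted one. Adjusted calls over all genes were 48 with DESeq2. With library size alone 4 members had an unadjusted p under 0.05 (Rgs5 and Rgs19 did not). Pathway genes were 2 with limma-voom, without the low-count filter and with the mural and endothelial score. Members without overlap of the sexes were 2 on TMM-scaled sizes, against 5.63% of all tested genes.

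Deviations of same-numbered female and male libraries correlated between -0.117 and 0.151, and those of other female and male pairs between -0.259 and 0.160. The replicate numbers thus gave no sign of a pairing, which does not exclude that some libraries were handled together. The fit with the replicate block gave 0 adjusted and 5 unadjusted members, and 6 adjusted and 872 unadjusted genes in all. Gnb3, Gnas, Rgs6 and Rgs17 stayed under an unadjusted p of 0.05, Rgs5 (0.0582) and Rgs19 (0.0787) did not, and Rgs8 came under it (0.0128).

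Of the 42 tested members, 28 kept the sign of their log2 difference under all 17 alternatives. The others, none with an unadjusted p under 0.05 in the model as reported, changed sign as follows. With the glial score the values were 0.033 for Gna11, 0.18 for Gna14, 0.23 for Gnai2, 0.021 for Gnao1, 0.096 for Rgs3, -0.80 for Gng11, 0.039 for Gng3, -0.075 for Gng8 and 0.12 for Rgs14. With each library left out in turn, the values ran from -0.22 to 0.0090 for Gna13 and from -0.041 to 0.13 for Gnaz (above and below 0, respectively, without female replicate 4), from -0.068 to 0.10 for Gnb5 and from -0.079 to 0.24 for Gng8 (below 0 without female replicate 4), and from -0.20 to 0.0096 for Gna14 (above 0 without male replicate 1). They ran from -0.16 to 0.30 for Gng11 (below 0 without male replicate 1), from -0.18 to 0.15 for Gng12 (above 0 without female replicate 4 and, at 0.0025, without male replicate 2) and from -0.085 to 0.16 for Gng4 (below 0 without female replicate 1 or 2 and male replicate 1 or 3). They ran from -0.16 to 0.012 for Gng3 (above 0 without female replicate 1 and, at 0.00064, without male replicate 1) and from -0.047 to 0.11 for Gnai2 (above 0 without male replicate 1 and, at 0.080, without female replicate 3). Gng4, at 0.02 as reported, was at -0.0058 with limma-voom and -0.0035 with the replicate block. Gnai2, at -0.00023 in the model as reported, was at 6.6e-05 with DESeq2 size factors, 0.022 with library size alone, 0.00033 with DESeq2, 0.0041 with limma-voom and 0.0017 with the replicate block. The causes were not tested. Small counts limit Gnb3, Rgs6, Rgs9, Gng11, Rgs20, Gng5 and the members below the filter.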
